A study of Homo sapiens and Mus musculus with 16 samples.

Results

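The genes described here are 10 genes of the endoplasmic reticulum (ER) stress response and of the ATF4 branch of the integrated stress response: HSPA5, HSP90B1, XBP1, HERPUD1, ATF4, DDIT3, TRIB3, ASNS, DDIT4 and SESN2. They were taken by name from the 22314 genes of the mRNA table, and all 10 were found in it, each in 1 row and each with a mean of at least 1 FPKM. The table holds 4 mRNA libraries of SK-HEP-1 cells, a human cell line from liver. Cells received DMSO, the solvent, at 0.5 mg/ml (U, untreated) or AcFBE, an ethanol extract of fruiting bodies of the fungus Antrodia cinnamomea, at 0.5 mg/ml (T, treated). RNA was taken after 2 hr (libraries 2U and 2T) or 4 hr (4U and 4T). All cells were grown in DMEM with serum. Each condition was sequenced as 1 library on the SOLiD 3 platform, so no difference between conditions below has a replicate check, and none carries a p-value or an error. AcFBE is a mixture of many compounds, and only this cell line was profiled for mRNA. Values are FPKM, which are fragment counts scaled for the length of the transcript and for the mapped fragments of the library. Genes of the lists below that were listed at 0 throughout had longer transcripts, so levels of different genes are compared only roughly.

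Proteins that fail to fold in the ER activate 3 sensors in its membrane. IRE1 (gene ERN1) splices the mRNA of XBP1, ATF6 is cut to release a transcription factor, and PERK (gene EIF2AK3) phosphorylates the translation factor eIF2alpha. The IRE1 and ATF6 arms raise the transcription of ER chaperones and of ER-associated degradation (ERAD) genes. Phosphorylated eIF2alpha slows most translation while that of ATF4 goes up, and ATF4 then switches on genes for amino acid supply together with DDIT3 (the protein CHOP) and TRIB3. Amino acid shortage, heme shortage and double-stranded RNA reach ATF4 through other kinases, which is why the response is called integrated. DDIT4 and SESN2 restrain the growth kinase mTORC1 and are also targets of p53, and DDIT4 of hypoxia and glucocorticoids as well.

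Promoters of the ER branch are known by short shared elements, so the promoters of the 10 genes were searched in the RefSeq promoter table (GRCh38.p14 windows of 250 bases before to 50 bases after each start), where all 10 matched by symbol with 16 windows. The ER stress element, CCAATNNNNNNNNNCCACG, was searched on both strands and was found before HSPA5, HSP90B1 and XBP1. Of all 35116 windows in the table, 27 (0.0769%) hold it. A related element, ERSE-II, written ATTGGNCCACG, was found before HERPUD1 and in 19 windows of the table (0.0541%). This element was added to the search after the first results were seen, and both elements contain the shorter motifs CCAAT (on either strand, in 34.6% of windows) and CCACG (38.1%). The C/EBP-ATF response element TGATGNAA, to which ATF4 binds with a C/EBP partner, was found before ASNS and HERPUD1 and in 3.62% of windows. No window of the 10 genes held the UPR element TGACGTGG (0.729% of windows) or the cyclic AMP response element TGACGTCA (1.85%). The ER elements were searched because promoters of this branch are known to carry them, so the shares given are no test of these genes. A match describes the letters only, and none of these libraries measured binding. Only these exact letters inside the windows were searched, so a missing match does not show that a gene lacks an element.

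The 5 promoters with an ER stress, ERSE-II or C/EBP-ATF element are printed because the 4 genes of the ER branch carry the first 2 elements and yet differed in direction, as described below. Each run is the 250 bases before the RefSeq start, 5′ to 3′ on the strand of the gene, with the elements in capitals. In GRCh37 the runs match chr9:128003623-128003872 (HSPA5, minus strand), chr12:104323938-104324187 (HSP90B1, plus), chr22:29196558-29196807 (XBP1, minus), chr16:56965804-56966053 (HERPUD1, plus) and chr7:97501721-97501970 (ASNS, minus), each at a single place on its chromosome. The GENCODE annotation places the outermost start of HSPA5, XBP1 and ASNS inside the run and that of HSP90B1 before it.
HSPA5: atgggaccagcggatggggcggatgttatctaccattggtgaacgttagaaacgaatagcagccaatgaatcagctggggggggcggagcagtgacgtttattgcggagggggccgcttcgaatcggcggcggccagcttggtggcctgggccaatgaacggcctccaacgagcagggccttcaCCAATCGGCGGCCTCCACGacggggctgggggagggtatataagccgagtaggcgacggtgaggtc
HSP90B1: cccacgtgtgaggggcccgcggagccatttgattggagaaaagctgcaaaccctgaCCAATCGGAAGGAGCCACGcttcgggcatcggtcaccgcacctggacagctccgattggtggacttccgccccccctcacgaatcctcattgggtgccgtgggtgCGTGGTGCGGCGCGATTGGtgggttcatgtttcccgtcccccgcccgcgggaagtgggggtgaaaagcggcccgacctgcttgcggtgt
XBP1: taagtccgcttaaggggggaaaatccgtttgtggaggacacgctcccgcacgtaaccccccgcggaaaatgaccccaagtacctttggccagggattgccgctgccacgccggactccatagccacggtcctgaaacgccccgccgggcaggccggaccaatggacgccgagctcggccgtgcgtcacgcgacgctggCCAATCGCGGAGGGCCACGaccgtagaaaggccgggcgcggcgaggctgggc
HERPUD1: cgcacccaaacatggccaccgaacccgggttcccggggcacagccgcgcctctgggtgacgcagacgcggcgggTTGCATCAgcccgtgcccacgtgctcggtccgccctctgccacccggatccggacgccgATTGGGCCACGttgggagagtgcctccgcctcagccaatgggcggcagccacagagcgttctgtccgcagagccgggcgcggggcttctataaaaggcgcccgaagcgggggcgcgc
ASNS: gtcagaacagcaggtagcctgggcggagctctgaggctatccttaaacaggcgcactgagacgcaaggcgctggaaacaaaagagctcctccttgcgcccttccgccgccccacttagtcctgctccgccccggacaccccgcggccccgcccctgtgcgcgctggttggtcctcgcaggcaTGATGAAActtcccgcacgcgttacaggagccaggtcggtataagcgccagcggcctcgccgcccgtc
Counted from the RefSeq start, the ER stress element lies at −66 to −48 in HSPA5 and at −52 to −34 in XBP1. HSP90B1 has it on the plus strand at −194 to −176 and on the minus strand at −89 to −71. In HERPUD1 the capitals mark the C/EBP-ATF element on the minus strand (−176 to −169) and then ERSE-II (−117 to −107), and in ASNS they mark the C/EBP-ATF element (−68 to −61).

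Before the values, some properties of the libraries are given. Library 2T lists at 0 some genes that are clearly present elsewhere: of 1614 genes with at least 10 FPKM in each of the other 3 libraries, 32 stand at 0 in 2T, whereas no gene stands at 0 in this way in 2U, 4U or 4T. DDIT3 is among these 32, as are the ER folding enzyme PDIA6 and the amino acid transporter chain SLC3A2. Of the 31 that could be placed on the genome, 20 (64.5%) overlap another listed gene, against 581 of 1548 (37.5%) of the genes above 0 in 2T. The lowest value above 0 is 0.0001 FPKM in the 2 hr libraries and 0.2 FPKM in the 4 hr libraries. The median log2 ratio over all genes with a mean of at least 1 FPKM over the 4 libraries was 0.03 for 2T/2U but −0.35 for 4T/4U, so 4 hr ratios are also given below relative to that median where a statement depends on it. The untreated libraries also held large amounts of mRNA of the heat shock genes HSPA1A and HSPA1B. This does not hold for heat shock genes as a class, since HSPA8 was higher in the treated libraries, as given below. HSPA1A, a cytosolic chaperone gene, stood at 2347 (2U), 21.1 (2T), 473 (4U) and 11.9 FPKM (4T), and its near-identical copy HSPA1B ran in parallel (1539, 14.6, 343 and 9.82 FPKM). The part of these properties in the results was not tested.

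The labelled tissue was checked with marker genes. Of 18 hepatocyte markers, 16 were listed at 0 in all 4 libraries, among them ALB, APOA1, TTR and HNF4A, and only SERPINA1 reached a mean of 1 FPKM (18.7, 17.1, 13.8 and 8.59 FPKM in 2U, 2T, 4U and 4T, the order used for all such series below). Of 12 endothelial markers, 10 were at 0, with ENG (22.3, 14.1, 24.8 and 8.65 FPKM) the exception above 1 FPKM. Of 8 mesenchymal markers, 6 reached a mean of 1 FPKM, with VIM at 6465 to 13625 FPKM. COL1A2 was at 0, and COL1A1 was above 0 only in 4T (0.271 FPKM). Of 5 immune markers, 3 were at 0, with CD68 (13.9, 8.87, 10.1 and 8.80 FPKM) the exception above 1 FPKM. These are listed values, and they do not show that a gene was not expressed, since genes that most cells use, such as ERN1, are also listed at 0 in all 4 libraries.

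ATF4 had the highest FPKM of the 10 mRNAs in every library, and DDIT4 or SESN2 the lowest of those above 0. Between treated and untreated cells the 10 genes did not move as a block. HSP90B1 was higher in both treated libraries than in both untreated ones and HSPA5 slightly so, whereas HERPUD1, ATF4, DDIT3, TRIB3, DDIT4 and SESN2 were lower in both treated libraries than in both untreated ones. For DDIT3 the 2T value is the listing at 0 described above, so only its 4T value is a measured lower level. XBP1 and ASNS overlapped. In these bulk libraries, a lower level in every cell and a loss of some cells cannot be told apart. Over all 5445 genes with a mean of at least 1 FPKM, 33.4% had both treated values below both untreated values and 23.7% had both above, so 6 and 2 of 10 stand beside those shares.

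**Figure D1:**
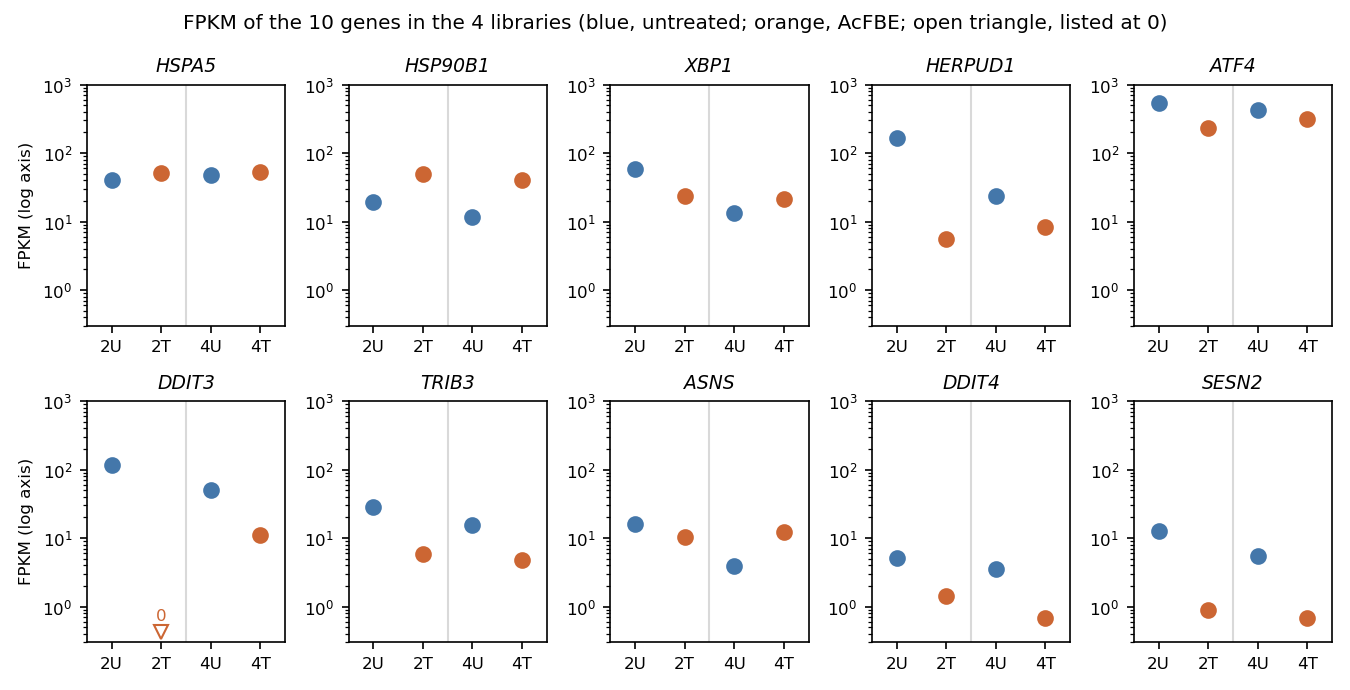
FPKM (common log axis) of the 10 genes in libraries 2U, 2T, 4U and 4T, with 1 point per library, blue for untreated and orange for AcFBE-treated, and an open triangle for DDIT3 in 2T, which is listed at 0. Orange points lie above blue ones for HSP90B1 and below them for HERPUD1, ATF4, DDIT3, TRIB3, DDIT4 and SESN2, while for XBP1 and ASNS the 4U value is the lowest of the 4.

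At 2 hr, 9 of the 10 genes had a ratio of treated to untreated cells, and DDIT3 had none because it is listed at 0 in 2T. Of these 9, 1 was at least 2-fold higher (HSP90B1) and 6 were at least 2-fold lower (XBP1, HERPUD1, ATF4, TRIB3, DDIT4 and SESN2), where 22.6% and 18.7% of all 5211 genes with a ratio were higher and lower by that fold. Their median log2 ratio was −1.28, against 0.03 for all genes. At 4 hr all 10 had a ratio. HSP90B1 and ASNS were at least 2-fold higher, and HERPUD1, DDIT3, TRIB3, DDIT4 and SESN2 at least 2-fold lower, beside 16.4% and 27.7% of 5392 genes. Relative to the median of all genes the background turns to 23.6% higher and 16.4% lower, and XBP1 then passes 2-fold as well (1.02 on the log2 scale). The median of the 10 log2 ratios at 4 hr was −0.99, against −0.35 for all genes.

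The same direction past 2-fold at both times was seen for HERPUD1, TRIB3, DDIT4 and SESN2 on the lower side, beside 10.2% of the 5199 genes with both ratios, and for HSP90B1 on the higher side, beside 8.31%.

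**Figure D2:**
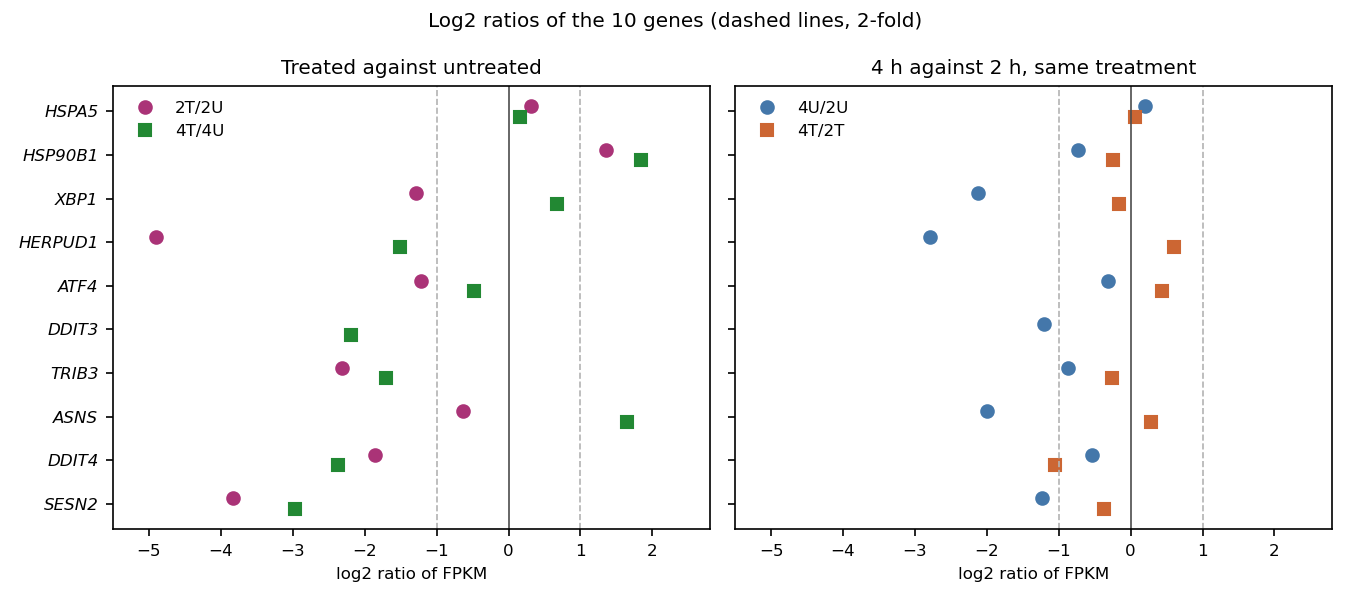
Log2 ratios of FPKM for the 10 genes, treated over untreated at 2 hr (circles) and 4 hr (squares) on the left, and 4 hr over 2 hr within untreated (circles) and treated cells (squares) on the right, each from 1 library per condition. On the left 4 genes lie left of the lower 2-fold line at both times, and on the right the treated libraries lie near 0 for most genes while XBP1, HERPUD1 and ASNS differ strongly between the untreated libraries.

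The ER chaperones come first. HSPA5 encodes BiP (GRP78), the main ER Hsp70 chaperone, which holds the sensors inactive until unfolded protein draws it away, and its rise is the usual sign of ER stress. The gene spans chr9:127997132-128003661 on the minus strand (GRCh37). It measured 40.9 FPKM in 2U and 50.7 in 2T at 2 hr, and 47.2 in 4U and 52.9 in 4T at 4 hr. The 4 values lie close together, with the treated ones highest, and the treated cells had 1.24-fold and 1.12-fold the untreated level at 2 and 4 hr (log2 0.31 and 0.16). Among 2135 genes with at least 10 FPKM on average and above 0 in all libraries, the profiles most like that of HSPA5 by distance of centred log2 FPKM over the 4 libraries were those of EIF2B2 (0.092), RPL7A (0.103) and ROBLD3 (0.106).

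HSP90B1 encodes GRP94, the Hsp90 of the ER lumen, and spans chr12:104323885-104347709 on the plus strand. Its level was 19.1 FPKM in 2U and 48.9 in 2T, then 11.5 in 4U and 41.0 in 4T. Both treated libraries stood well above both untreated libraries, by 2.56-fold at 2 hr and 3.58-fold at 4 hr (log2 1.36 and 1.84). The ratio of HSP90B1 to HSPA5 within a library, which does not depend on how libraries were scaled, was 0.467 and 0.243 in untreated cells and 0.964 and 0.777 in treated cells. Reads may be shared with the pseudogene HSP90B3P, which was lower but moved alike (0.919, 4.66, 0.807 and 4.24 FPKM), and a read that matches both cannot be placed. HSP90B1 also overlaps GNN, MIR3652 and C12orf73.

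XBP1, the transcription factor whose mRNA is spliced by IRE1, spans chr22:29190543-29196585 on the minus strand. It measured 58.1 FPKM in 2U and 23.9 in 2T, then 13.4 in 4U and 21.3 in 4T. The treated libraries were alike, and the untreated libraries lay on either side of them. XBP1 was therefore 2.43-fold lower in treated cells at 2 hr and 1.59-fold higher at 4 hr (log2 −1.28 and 0.67), and against the untreated library of the other time each ratio took the opposite sign (0.84 and −1.45). The FPKM sum over the gene, so spliced and unspliced XBP1 cannot be told apart.

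HERPUD1, a membrane component of the ERAD complex that responds strongly to ER stress, spans chr16:56966054-56978776 on the plus strand. It stood at 164 FPKM in 2U and 5.48 in 2T, and at 23.6 in 4U and 8.32 in 4T. Both treated values lay below both untreated values, by 29.9-fold at 2 hr and 2.84-fold at 4 hr (log2 −4.90 and −1.51). The untreated libraries themselves differed 6.94-fold, which is most of the gap between the 2 ratios, since 2T and 4T differed only 1.52-fold. Within a library the FPKM of HERPUD1 was 8.59 and 2.06 times that of HSP90B1 in untreated cells and 0.112 and 0.203 times in treated cells. HERPUD1 and HSP90B1, which both carry an ER stress element or its relative, thus stood on opposite sides in these libraries.

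ATF4, the transcription factor of the integrated stress response, is controlled mostly through its translation, which mRNA levels do not show. It spans chr22:39915700-39918688 on the plus strand. Its mRNA measured 535 FPKM in 2U and 431 in 4U, and 229.5 in 2T and 309.7 in 4T. The treated values were below both untreated values, 2.33-fold lower at 2 hr and 1.39-fold lower at 4 hr (log2 −1.22 and −0.48). The 4 hr difference is −0.12 relative to the median of all genes, so at 4 hr ATF4 sat near the middle of the table.

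DDIT3, which encodes the pro-apoptotic factor CHOP and is a target of ATF4, was at 116 FPKM in 2U, 50.2 in 4U and 11.0 in 4T, and was listed at 0 in 2T. Its 4 hr level was 4.57-fold lower in treated cells (log2 −2.19). No fold is given at 2 hr. DDIT3 (chr12:57910371-57915520, minus strand) overlaps the tRNA synthetase gene MARS on the plus strand by 982 bases and MBD6 by 1028, and MARS was also listed at 0 in 2T (2.90, 0, 29.7 and 18.5 FPKM). Whether counting used strand is not given in the sources used here, so reads of DDIT3 and MARS in the shared bases cannot be told apart. DDIT3 has no centred profile for the same reason as it has no 2 hr ratio, and no gene of like profile is named.

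TRIB3 encodes a pseudokinase induced by ATF4 and CHOP that inhibits AKT (chr20:343479-378203, plus strand). Untreated cells had 28.7 FPKM (2U) and 15.7 (4U), and treated cells 5.77 (2T) and 4.81 (4T). The groups did not overlap, and treated cells were 4.97-fold lower at 2 hr and 3.27-fold lower at 4 hr (log2 −2.31 and −1.71). Relative to ATF4, TRIB3 was also lower in treated cells, with a TRIB3 to ATF4 ratio of 0.0535 and 0.0365 in untreated and 0.0251 and 0.0155 in treated libraries.

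ASNS encodes asparagine synthetase, a classic ATF4 target (chr7:97480989-97501854, minus strand). Untreated cells had 15.9 FPKM (2U) and 3.97 (4U), and treated cells 10.2 (2T) and 12.4 (4T). As for XBP1, the treated values lay between the untreated ones, so ASNS was 1.55-fold lower in treated cells at 2 hr and 3.13-fold higher at 4 hr (log2 −0.63 and 1.65). The ratio of ASNS to TRIB3 was 0.553 and 0.252 in untreated cells and 1.78 and 2.58 in treated cells, so these ATF4 targets did not keep a fixed proportion.

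DDIT4 encodes REDD1, which acts on mTORC1 through the TSC complex (chr10:74033678-74035794, plus strand). It had the lowest average of the 10 genes, with 5.17 FPKM in 2U against 1.43 in 2T, and 3.55 in 4U against 0.690 in 4T. Treated cells were lower at both times, 3.61-fold and 5.15-fold (log2 −1.85 and −2.37). SESN2, a leucine sensor that acts on mTORC1 through GATOR2 (chr1:28586029-28609002, plus strand), was at 12.7, 0.892, 5.41 and 0.688 FPKM. Both treated values were under 1 FPKM and both untreated ones above 5 FPKM, a difference of 14.3-fold at 2 hr and 7.87-fold at 4 hr (log2 −3.84 and −2.98). The number of reads behind these low values is unknown.

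The untreated libraries and the treated libraries were also compared across time. From 2U to 4U, 5 of the 10 genes were at least 2-fold lower (XBP1, HERPUD1, DDIT3, ASNS and SESN2) and 0 higher, beside 9.89% and 21.6% of 5328 genes. Under quantile normalization those shares were 15.8% and 14.8%. The largest of these differences were for HERPUD1 (log2 −2.80) and XBP1 (−2.12), and ASNS was 3.99-fold lower. From 2T to 4T, 1 of 9 genes was at least 2-fold lower (DDIT4, log2 −1.05) and 0 higher, beside 5.19% and 4.15% of 5206 genes. The SD of the log2 ratio over all genes was 0.66 between the treated libraries, against 1.21 between the untreated ones, 1.45 for 2T/2U and 1.21 for 4T/4U. For HSP90B1, XBP1, HERPUD1, ASNS, SESN2 and TRIB3 the untreated libraries differed by more than the treated libraries did, and for HSPA5 both differences were small (log2 0.21 and 0.06). For DDIT4 the treated libraries differed more (−1.05, against −0.54 between the untreated ones), as they did for ATF4 (0.43 against −0.31). Time, library and any difference in processing between the 2 hr and 4 hr columns cannot be told apart in this comparison.

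Each treated library was therefore set against each untreated library. HSP90B1 was at least 2-fold higher in all 4 pairings (log2 1.10 to 2.09). HERPUD1 (−4.90 to −1.51), TRIB3 (−2.57 to −1.45), DDIT4 (−2.91 to −1.31) and SESN2 (−4.21 to −2.60) were at least 2-fold lower in all 4. DDIT3 had ratios in the 2 pairings with 4T (−3.40 and −2.19). ATF4 was lower in all 4 but past 2-fold only for 2T/2U, HSPA5 was higher by less than 2-fold in all 4, and XBP1 and ASNS followed the untreated library used. For 2T/4U, 2 of 9 genes were at least 2-fold higher and 4 lower, beside 13.1% and 19.1% of 5207 genes, and for 4T/2U 1 of 10 was higher and 6 lower, beside 22.4% and 22.8% of 5331. The pairings share libraries and are no replicates of each other.

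**Figure D3:**
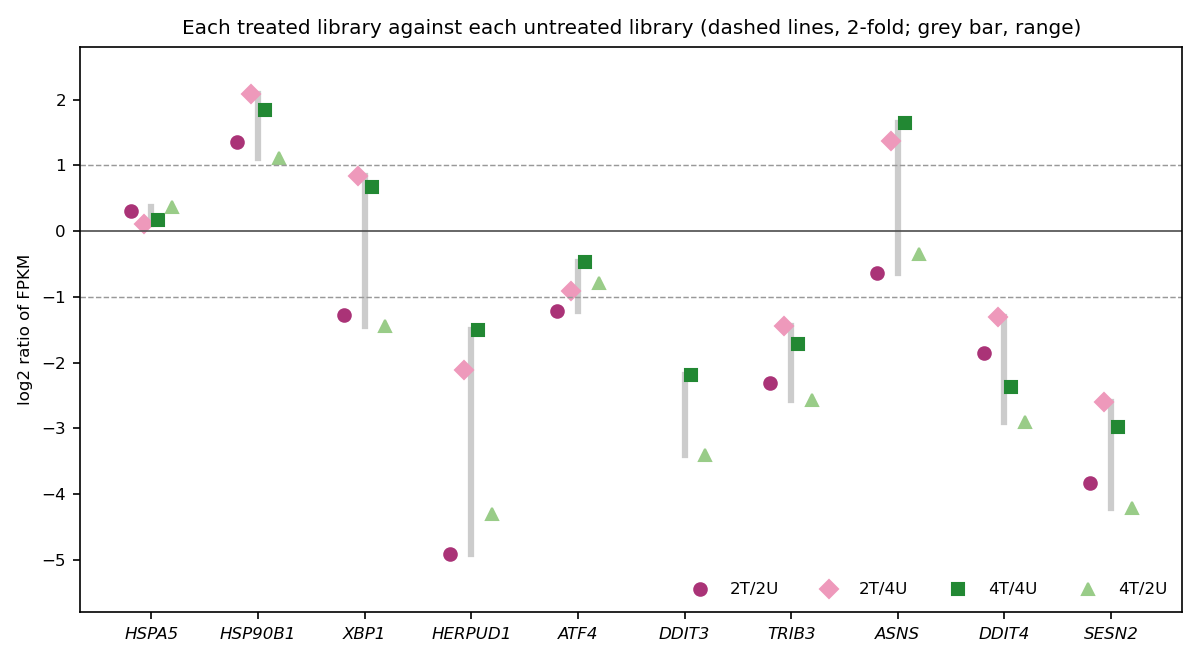
Log2 ratio of FPKM of each gene for the 4 pairings of a treated with an untreated library (symbols), with the range as a grey bar and the 2-fold lines dashed. HSP90B1 lies above the upper line and HERPUD1, TRIB3, DDIT4 and SESN2 below the lower line in every pairing, while the bars of XBP1 and ASNS cross 0.

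**Figure D4:**
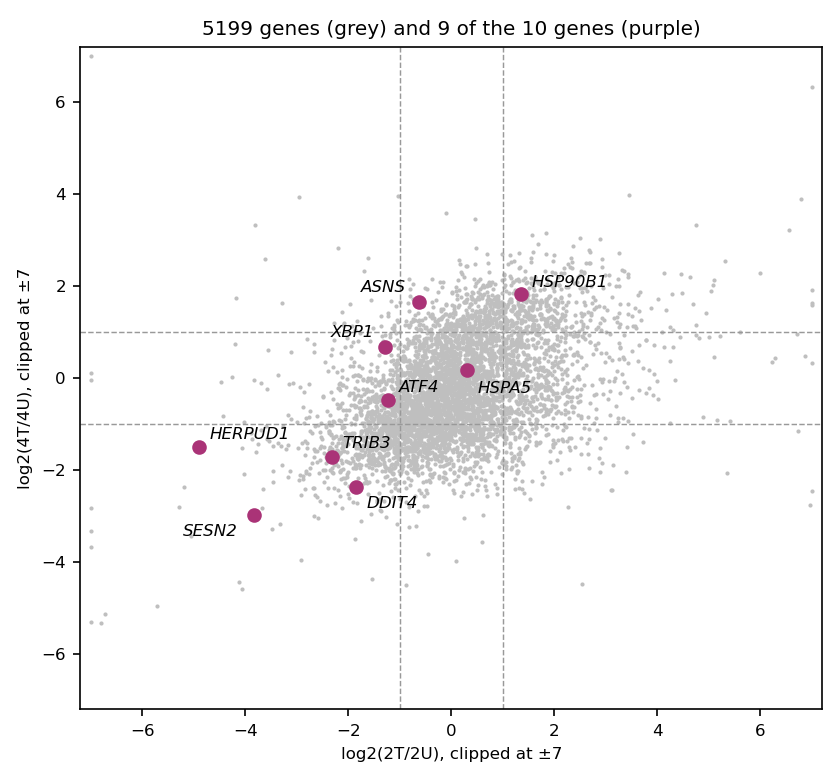
Log2(2T/2U) on the x axis against log2(4T/4U) on the y axis for 5199 genes (grey) with 9 of the 10 genes in purple, since DDIT3 has no 2 hr ratio. HERPUD1 and SESN2 lie far to the lower left of the cloud, HSP90B1 in the upper right and HSPA5 near the centre, and 2U, 2T, 4U and 4T enter once each.

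The other genes of these pathways were read from lists, counting genes with a mean of at least 1 FPKM and a ratio. Their counts stand beside 22.6% higher and 18.7% lower of all genes at 2 hr (median log2 0.03) and 16.4% and 27.7% at 4 hr (−0.35). Of 12 other ER chaperones and folding enzymes at 2 hr, 2 were at least 2-fold higher and 0 lower (median log2 0.05), and of 13 at 4 hr 3 were higher and 0 lower (−0.19). CALR, the lectin chaperone calreticulin, was at 54.9, 179.6, 133 and 168 FPKM, higher in treated cells mainly at 2 hr (log2 1.71 and 0.34). SDF2L1 was likewise higher at 2 hr (1.53) but not at 4 hr (−0.22), and the cochaperone DNAJB11 at 4 hr (0.16 and 1.91). P4HB, a protein disulfide isomerase, was lower at both times (−0.90 and −0.94). PDIA6 was at 39.4, 0, 37.9 and 172 FPKM, with a log2 ratio of 2.18 at 4 hr.

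ERAD and ER translocation genes, the group of HERPUD1, gave 2 higher and 4 lower of 18 at 2 hr (median −0.02) and 2 higher and 4 lower of 19 at 4 hr (0.02). OS9, a lectin of the ERAD complex, was lower at 2 hr (log2 −2.18) but not at 4 hr (−0.23), since it stood at 23.2 FPKM in 2U and 4.12 to 5.12 in the other libraries. SSR1, of the translocon-associated complex, was higher at both times (1.31 and 1.40). DERL3 was listed at 0 in both 2 hr libraries and was higher at 4 hr (0.845 in 4U and 11.9 in 4T).

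The sensors were poorly seen. ERN1 and EIF2AK3 were listed at 0 in all 4 libraries. The genes of these lists at 0 throughout had longer transcripts (median of the longest transcript 7380 bases, n = 15) than those with a mean of at least 1 FPKM (3368 bases, n = 94), so a value of 0 is not read as no expression. Of the 5 sensor and proximal genes with a ratio, 1 was higher and 0 lower at 2 hr (median −0.27) and 1 higher and 1 lower at 4 hr (0.38). EIF2S1, which encodes eIF2alpha itself, was higher in treated cells at both times (1.72, 10.0, 3.77 and 14.7 FPKM). The list of other eIF2alpha kinases and brakes also holds subunits of the factor eIF2B. Its genes with a ratio were EIF2AK1, PPP1R15A, EIF2B1, EIF2B2, EIF2B3, EIF2B4 and EIF2B5. Of these 7, 0 were higher and 2 lower at 2 hr (0.06) and 2 higher and 1 lower at 4 hr (−0.48). The 2 higher at 4 hr were EIF2B1 (log2 1.08) and EIF2B3 (1.55), and the 2 lower at 2 hr were PPP1R15A and EIF2B5. PPP1R15A, the stress-induced phosphatase subunit GADD34 and itself a target of ATF4 and CHOP, was at 32.9, 7.68, 31.0 and 6.83 FPKM, lower in both treated libraries.

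Of 20 other regulators that ATF4 and CHOP switch on, 6 had a mean of at least 1 FPKM. Of these 6, PPP1R15A among them again, 4 at 2 hr and 4 at 4 hr were at least 2-fold lower, with 0 and 1 higher (median −1.66 and −2.30), and without PPP1R15A 3 of 5 were lower at each time. With no minimum level the medians were −0.38 and −0.47. GDF15, a secreted stress cytokine, was at 96.4, 8.62, 65.2 and 6.69 FPKM (log2 −3.48 and −3.28). CHAC1, which degrades glutathione, was lower at both times (−3.66 and −2.41), and the transcription factor ATF3 mainly at 4 hr (−0.68 and −3.21). CEBPG, the C/EBP partner of ATF4, was lower at 2 hr and higher at 4 hr (−1.22 and 1.36).

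ATF4 targets for amino acid synthesis and transport, the group of ASNS, gave 2 higher and 4 lower of 12 at 2 hr (median −0.17) and 1 higher and 9 lower of 13 at 4 hr (−1.18). With 4 hr ratios taken relative to the median of all genes, the list median was −0.82. Those of the 9 with ratios of −1.10 to −1.26 then lay inside 2-fold, and 16.4% of all genes were lower past it. SLC1A5, a glutamine transporter, was at 87.8, 43.8, 162 and 39.7 FPKM, and the mitochondrial serine enzyme SHMT2 at 41.3, 16.1, 43.2 and 15.0. Both were lower in both treated libraries. MTHFD2, a mitochondrial folate enzyme, was higher (0.55 and 1.31), as ASNS was at 4 hr. Against 2U in place of 4U the median of the 4T ratios was 0.28, so the low 4 hr median, which is below the −0.35 of all genes, rests on 4U.

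Of the cytosolic tRNA synthetases, which ATF4 also serves, 4 were higher and 1 lower of 11 at 2 hr (median 0.54), and 5 higher and 0 lower of 12 at 4 hr (0.64), which are 36.4% and 41.7% higher beside the 22.6% and 16.4% of all genes. Against 2U the 4 hr median was 0.08. NARS, the asparaginyl enzyme, measured 1.33, 7.54, 1.10 and 9.04 FPKM, and TARS, the threonyl enzyme, 1.34, 4.81, 1.84 and 5.43. Both were higher in both treated libraries. Single ATF4 targets thus differed in direction, with GDF15 and SLC1A5 lower and NARS and TARS higher in both treated libraries.

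**Figure D5:**
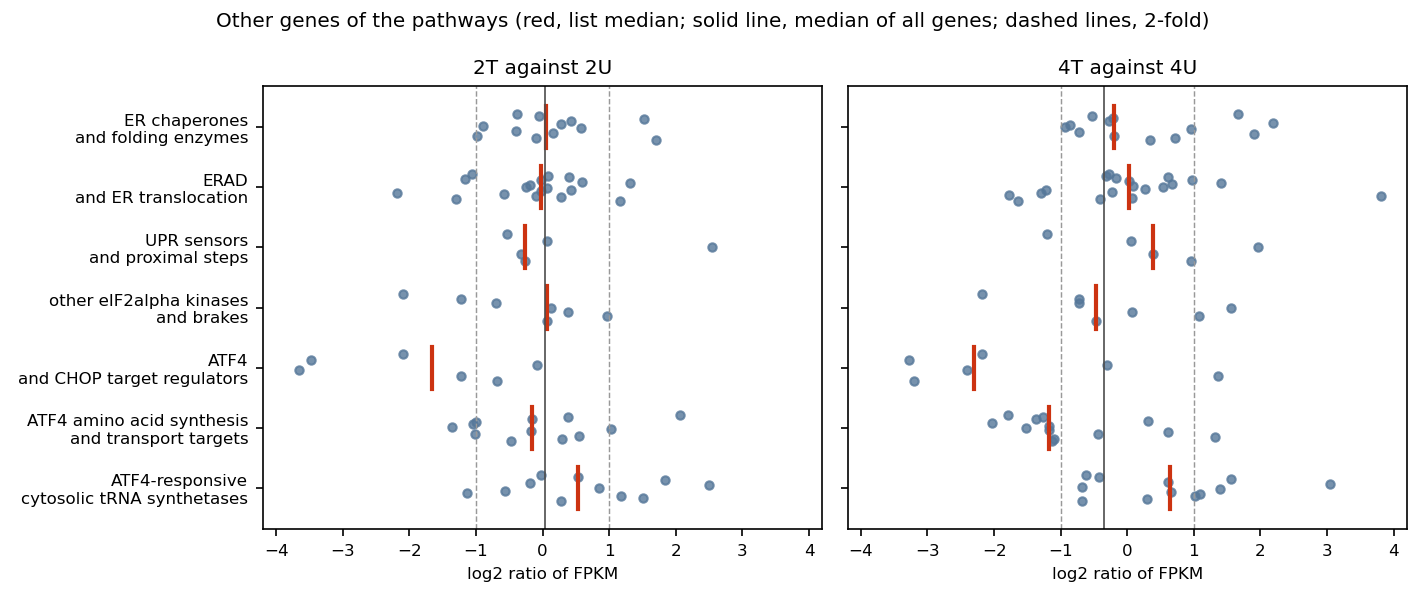
Log2 ratio of FPKM of single genes (blue points, with a mean of at least 1 FPKM) in 7 lists of the ER stress and ATF4 pathways, 2T against 2U on the left and 4T against 4U on the right, with list medians in red, the median of all genes as a solid line and 2-fold as dashed lines. Among these genes the ATF4 and CHOP target regulators, with 6 of 20 genes plotted, have the lowest medians (−1.66 and −2.30, but −0.38 and −0.47 with no minimum level) and the tRNA synthetases the highest (0.54 and 0.64).

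DDIT4 and SESN2 have other inputs, whose targets were counted too. Of p53 targets, only CDKN1A and GADD45A had a mean of at least 1 FPKM. CDKN1A, the cell cycle inhibitor p21, was at 193, 20.9, 89.1 and 30.7 FPKM, and GADD45A at 41.1, 25.4, 64.1 and 23.5, both lower in both treated libraries, with 1 of 2 past 2-fold at 2 hr and 2 of 2 at 4 hr (medians −1.95 and −1.49). Of the hypoxia and glucocorticoid targets, 4 had a mean of at least 1 FPKM: SLC2A1, BNIP3, ADM and NDRG1. The glucocorticoid targets TSC22D3, FKBP5 and PER1 had lower means (0.816, 0.133 and 0.731 FPKM), so the counts do not cover them. Of the 4 genes, 1 was higher and 1 lower at 2 hr and 0 higher and 2 lower at 4 hr (−0.50 and −0.88). The glucose transporter SLC2A1 was lower at both times (39.8, 14.5, 47.6 and 11.9 FPKM), whereas ADM, adrenomedullin, was higher at 2 hr (2.07 and −0.72). ADM was at 13.3, 56.1, 48.7 and 29.6 FPKM, with 2U the lowest. Among 7 mTORC1 regulators that act with DDIT4 and SESN2, 1 was higher and 2 lower at 2 hr and 2 higher and 2 lower at 4 hr (−0.27 and −0.42). Against the mean of the untreated libraries these medians were −0.95 and 0.48, so the 4 hr direction turned. AKT1S1, the mTORC1 component PRAS40, was the gene past 2-fold higher at 2 hr (log2 2.09 and −0.42) and WDR59 had the lowest ratio at 2 hr (−1.57 and −0.52). AKT1S1 was at 0.284, 1.21, 4.47 and 3.33 FPKM, so its 2 hr ratio rests on a low 2U value and 2T was below 4U. WDR24 was lower (−1.09 and −1.35) and NPRL3 higher (0.90 and 1.57) at both times.

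Among family relatives of the 10 genes, the Hsp70 and Hsp90 genes HSPA1A, HSPA1B, HSPA8, HSPA9, HSP90AA1, HSP90AB1 and TRAP1 were counted. Also counted were ATF3, ATF6 and CEBPG, which are in lists above too. The sestrins SESN1 and SESN3 were listed at 0 in all 4 libraries and do not enter. These relatives gave 1 higher and 3 lower of 10 at 2 hr (median −0.67) and 4 higher and 4 lower of 10 at 4 hr (0.75). Both medians change sign against the untreated library of the other time (0.66 and −0.53) and with no minimum level (0.05 and −0.08), and against the mean of the untreated libraries the 4 hr median was 0.09. HSPA8, the constitutive cytosolic Hsp70, was higher in treated cells (416, 1850, 855 and 2148 FPKM), against the far lower HSPA1A and HSPA1B given above. Of 14 reference genes in common use for normalization, 4 were higher and 2 lower at 2 hr and 2 higher and 0 lower at 4 hr (−0.20 and 0.09). ACTB alone spanned 653 to 2305 FPKM, with the lowest value in 2U.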

How the data were processed

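The mRNA values are FPKM that the authors deposited in 1 table of 22314 genes for 4 libraries. Per the study, PCR-amplified cDNA was fragmented, sequenced, aligned with Bowtie and quantified with Cufflinks. Its methods give reads of 35 bases in a passage on adapter trimming and state no read length for mRNA alone. The submitters' processing notes name TopHat, Cufflinks and GRCh37. The labels name a poly(A) kit and a total RNA-seq kit. Version and strand setting for mRNA are not given in the sources used here. FPKM showed no steps of whole reads, so the depth behind a gene is unknown and intervals are not given. The 12 miRNA samples were not used, and some genes of the lists are counted but not reported here by name.

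Groups came from the sample titles. Log2 ratios used no pseudocount and need a value above 0 in both libraries. A gene was counted as higher or lower past 2-fold, over genes with a mean of at least 1 FPKM. With 1 library per condition no test was run. Named genes were the 10 genes, examples from the largest rises and falls of each list and the nearest profiles of HSPA5, apart from SLC3A2 and the heat shock, marker and overlapping genes, some of which were named after their values were seen. The 10 genes and the lists were chosen with earlier results of these data known. Alternatives were other pseudocounts, scalings, fold limits, minimum levels and controls. Positions are from GENCODE release 44 lifted to GRCh37, and promoters are from RefSeq. Scripts used Python 3.11.15, numpy 2.4.6, pandas 2.3.3 and matplotlib 3.10.9, and were tested on simulated data.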

Additional observations from a re-analysis of the deposited data

Results flagged for a closer look

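Some genes moved in opposite directions at 2 and 4 hr. The difference between the 4 hr and the 2 hr log2 ratio, which was not tested since each condition has 1 library, was 1.95 for XBP1 and 2.28 for ASNS. Among the other pathway genes past 2-fold at both times that are reported here it was 2.58 for CEBPG and 2.24 for GARS, which were lower at 2 hr and higher at 4 hr, and −2.20 for PYCR1 and −3.85 for SLC7A5, which were higher at 2 hr and lower at 4 hr. In each of these genes the treated libraries were closer to each other than the untreated ones were.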

How the results depend on the processing

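Of 183 recomputed log2 ratios of the 10 genes, 159 moved by less than 1.5-fold, 22 moved by more and 2 changed sign past a called value: XBP1 at 2 hr was 0.84 and ASNS at 4 hr −0.35 against the untreated library of the other time, an alternative chosen after seeing the data. Against the mean of the untreated libraries XBP1 at 2 hr was −0.58 and ASNS at 4 hr 0.33. ATF4 at 2 hr was −0.96 after quantile normalization and −0.91 against 4U. The range over alternatives was −4.94 to −2.11 and −4.30 to −1.15 for HERPUD1 at 2 and 4 hr, −3.87 to −2.60 and −4.21 to −1.93 for SESN2, and 1.31 to 2.09 and 1.10 to 2.19 for HSP90B1. The number of the 10 genes at least 2-fold higher at 2 hr was 2 against the other untreated library and 0 at a fold limit of 3, and at 4 hr it was 1 against the mean of the untreated libraries and 1 against the other untreated library. From 2U to 4U, 3 were lower at a fold limit of 3. The median of the ATF4 amino acid list at 4 hr turned to 0.28 against 2U. Of 20 list medians of treated against untreated cells, 12 changed sign under at least 1 alternative. Of all genes, the percentage higher at 2 hr was 13.2 against the mean of the untreated libraries and 13.1 against 4U. Fold limits of 1.5 and 3 gave 29.9 and 8.52% lower at 2 hr and, for higher, 12.6% at 3. At 4 hr they gave 24.8 and 6.58% higher and 42.3 and 11.0% lower, and centring on the median gave 16.4% lower. From 2U to 4U they gave 33.9 and 11.0% higher and 20.3 and 3.12% lower, quantile normalization gave 15.8% lower, and no minimum level gave 34.5% higher. Taking the highest row of repeated symbols was not run because no symbol is repeated. No paired analysis was possible because each mRNA condition has 1 library.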
